A study of Homo sapiens with 22 samples.

Results

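Of the 9585 places on chromosomes 1 to 22 where AN3CA cells with wild-type ARID1A carried a BAF complex, 1088 (11.4%) had no BAF peak in cells without the transgene but already carried histone H3 acetylated at lysine 27 (H3K27ac) there. These acetylated gained sites were chosen from peak lists in hg19 coordinates, with a shared base counted as overlap. A BAF site was a SMARCA4 peak of wild-type (WT) cells that met a WT SMARCC1 peak, as 75.4% of the 12720 WT SMARCA4 peaks did. It was called gained when neither empty-vector replicate had a peak of either subunit there, which left 4322 sites. A gained site was called acetylated when it met an H3K27ac peak of at least 1 empty-vector replicate, and this held for 25.2% of gained sites. The presence of both subunits in WT, their absence in empty-vector cells and the presence of H3K27ac in empty-vector cells are therefore fixed by the choice and are no results. The H3K27ac list of WT and all lists of the 4 mutants played no part in it.

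BAF, also called SWI/SNF, is a chromatin remodelling complex that moves nucleosomes with energy from ATP. SMARCA4 is its ATPase, SMARCC1 is a core subunit around which the complex is built, and ARID1A is a large subunit found in its canonical form. Peaks of SMARCA4 and SMARCC1 do not show which form of the complex was present. H3K27ac is placed by the acetyltransferases CBP and EP300 and marks active promoters and enhancers, where canonical BAF is often found, and ARID1A is often lost in endometrial cancers.

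AN3CA is an established human endometrial carcinoma line, and proteins and histone marks on its chromatin were mapped by CUT&Tag, which uses an antibody to bring a DNA-cutting and tagging enzyme to its target. All cells carried either an empty vector (Empty, 2 replicates) or 1 of 5 forms of ARID1A with 1 library per antibody. These forms were WT ARID1A, one with a mutated ARID domain, the DNA-binding part (DBDmut), the truncations delIDR1 and CBR, and a hybrid with an intrinsically disordered region (IDR) named for DDX4, a germ cell RNA helicase. The labels do not say what ARID1A the parental line makes, whether the lines were clones, or how the forms were expressed. With 1 library each, no difference between single forms has a replicate check, and the 2 Empty replicates are the only measure of spread between libraries.

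The 22 lists were not of equal depth. Depth estimated from the peak statistics ran from 0.913 to 1.94 fragments per kb for SMARCA4, from 1.32 to 3.29 for SMARCC1 and from 3.59 to 14.5 for H3K27ac. The highest H3K27ac value belonged to Empty replicate 2, with 90766 peaks on these chromosomes, against 35429 in Empty replicate 1 and 30991 to 49682 in the 5 lists with ARID1A. Peak names carry stamps, and the labels do not say what they mark. Empty replicate 2 had a stamp of its own, as did the DDX4 libraries, and all other libraries shared another. Depth, stamp and construct cannot be told apart for DDX4, nor where another background is set against Empty replicate 2.

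The H3K27ac that defined these sites was unevenly shared by the Empty replicates. Both replicates had a peak at 422 of the 1088 sites (38.8%), only replicate 2 at 531 (48.8%) and only replicate 1 at 135 (12.4%). The description of the sites as acetylated without ARID1A thus rests on the deepest library alone for 48.8% of them. In that library their H3K27ac peaks were of middling strength, with a median rank of 27614 by −log10 q, at 30.4% of the way down the list, and in replicate 1 the median rank of 16187 was at 45.7%. At constitutive BAF sites, the 2545 sites with both subunits in WT and in both Empty replicates, the same medians lay at 3.57% and 11.4% of the way down.

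The sites were ordinary gained sites by the strength of their WT BAF peaks. Their median rank was 5994 among the 12720 SMARCA4 peaks and 7439.5 among the 23364 SMARCC1 peaks. The 3234 gained sites without H3K27ac in Empty had medians of 6197 and 8306, and the constitutive sites 2693 and 2224. The authors' fold enrichment over local background, a value of each peak within its own list, had a median of 7.08 at the SMARCA4 peaks of acetylated gained sites, 6.97 at unacetylated ones and 8.83 at constitutive ones.

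The first question was how much BAF the mutants carried at these sites, and the answer differed widely by mutant. DBDmut had a SMARCA4 peak at 504 of the 1088 sites (46.3%), against 66.3% of all BAF sites, and a SMARCC1 peak at 616 (56.6%), against 73.3%. delIDR1 had SMARCA4 at 284 sites (26.1%; 44.5% of all BAF sites) and SMARCC1 at 315 (29.0%; 52.3%). CBR had SMARCA4 at 250 sites (23.0%; 46.4% of all BAF sites) and SMARCC1 at 286 (26.3%; 48.4%). DDX4 had SMARCA4 at 59 sites (5.42%; 40.3% of all BAF sites) and SMARCC1 at 133 (12.2%; 44.4%). In each mutant SMARCC1 was found at more of these sites than SMARCA4.

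Both subunits together were present at 409 sites in DBDmut (37.6%, Wilson 95% interval 34.8 to 40.5), against 60.1% of all BAF sites. They were present at 173 sites in delIDR1 (15.9%, 13.8 to 18.2), against 36.3%, and at 152 in CBR (14.0%, 12.0 to 16.2), against 39.1%. DDX4 had both at 17 sites (1.56%, 0.978 to 2.49), against 33.8%. All 4 shares were thus below the background of all BAF sites, which includes the constitutive sites, where the shares were 94.3%, 75.6%, 86.2% and 87.8%. These intervals cover counting error only, since sites close together and copies made by PCR share their source.

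In percentage points, CBR differed most of the 4 mutants between acetylated and unacetylated gained sites, though a single library allows no test of 1 mutant. At the 3234 unacetylated gained sites it had both subunits at 88 (2.72%, 2.21 to 3.34), 11.2 percentage points below its share of the acetylated ones. DBDmut had both at 34.9% of the unacetylated sites and delIDR1 at 13.4%, which were 2.71 and 2.48 points below their shares of the acetylated ones. DDX4 had both at 3 of 3234 (0.0928%), 1.47 points below its 17 of 1088 acetylated sites (1.56%). By ratio DDX4 differed more than CBR, though on these few sites. The difference was in the same direction in 4 of 4 mutants, with a mean of 4.48 ± 4.55 points (SD, n = 4 mutants) and a two-sided exact sign-flip permutation p = 0.125, also 0.125 after Benjamini-Hochberg adjustment over 2 tests. That is the smallest p that 4 mutants allow, so the test could not pass 0.05, and the mutants share the WT and Empty lists that define the sites.

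The levels moved with the Empty lists used. Without Empty replicate 2, for both BAF and H3K27ac, CBR had both subunits at 23.4% of the sites so chosen and DDX4 at 7.33%, while DBDmut had 46.4% and delIDR1 17.1%, and the mean difference became 10.3 points. Without Empty replicate 1 the shares were 18.1% in delIDR1 and 19.1% in CBR, with 40.0% in DBDmut and 3.34% in DDX4, and the mean difference became 6.84 points. CBR and delIDR1 had overlapping intervals at first and exchanged places in both cases, so their order was not settled. With every list shortened to the length of the shortest of its antibody, delIDR1, whose SMARCC1 library was the shallowest, had both subunits at 32.1% and DBDmut at 36.1%.

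**Figure D1:**
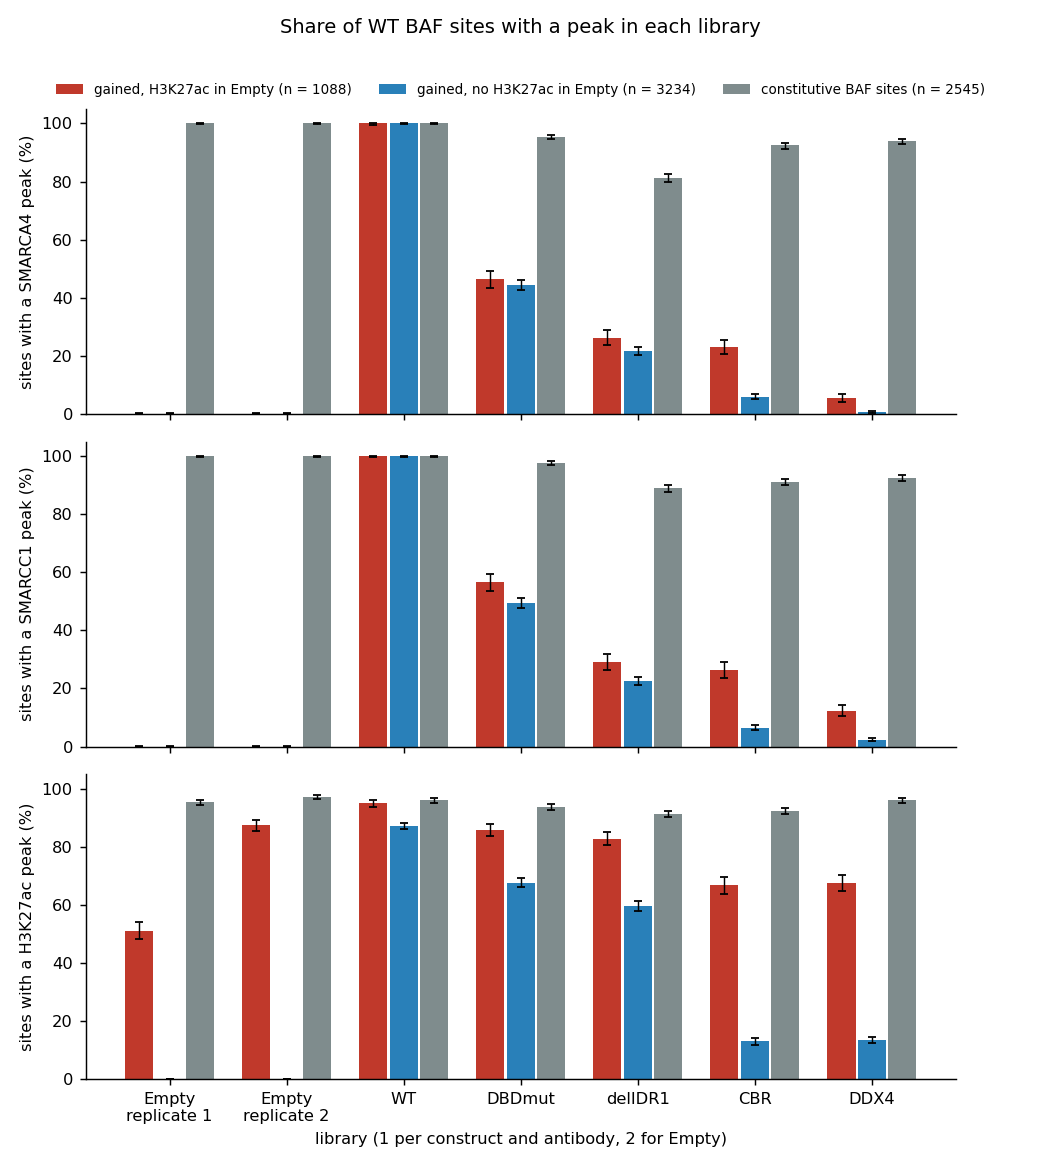
Share of sites (%, vertical axes from 0) with a SMARCA4, SMARCC1 or H3K27ac peak in each of 7 libraries per antibody (horizontal axis), for 1088 acetylated gained, 3234 unacetylated gained and 2545 constitutive sites; error bars are Wilson 95% intervals, and the SMARCA4 and SMARCC1 bars of Empty and WT, and the absence of Empty H3K27ac at unacetylated sites, are fixed by the choice of sites, as is H3K27ac in at least 1 Empty replicate at acetylated ones. The H3K27ac bars of acetylated gained sites stay at 66.8% or more in every form of ARID1A, while those of unacetylated sites drop to 13.1% in CBR and 13.5% in DDX4.

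The gap between the classes in CBR held at matched WT strength. When all gained sites were split into 5 equal groups by their summed WT ranks, CBR had both subunits more often at acetylated than at unacetylated sites in 5 of 5 groups. DDX4 had too few such sites to compare, with 8, 5, 1, 2 and 1 acetylated sites from the strongest to the weakest group and 3, 0, 0, 0 and 0 unacetylated ones. Among the strongest group CBR had both at 70 of 235 acetylated sites (29.8%) and at 41 of 630 unacetylated ones (6.51%). In the weakest group CBR had both at 5.08% and 1.02%. DBDmut had 68.5% and 71.1% in the strongest group and 9.60% and 12.1% in the weakest, and it was higher at acetylated sites in 3 of 5 groups, as was delIDR1, with 44.7% and 39.2% in the strongest group. WT strength itself went with a far larger range of the share in DBDmut and delIDR1 than prior acetylation did.

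The strength of the Empty H3K27ac peak went along with BAF in CBR but not in delIDR1. The 953 sites with H3K27ac in Empty replicate 2 were cut into tertiles by rank in that list. CBR had both subunits at 24.5% of the strongest tertile, 11.0% of the middle and 7.23% of the weakest, and DDX4 at 3.77%, 1.26% and 0 of 318 sites, a count that allows a share of up to 0.943%. DBDmut went from 39.9% over 36.9% to 32.1%, and delIDR1 from 14.5% over 18.9% to 14.5%. By rank in Empty replicate 1, CBR went from 27.4% over 16.2% to 16.1%, whereas delIDR1 had 12.9%, 11.9% and 19.9% and DBDmut 41.9%, 42.7% and 46.2%. At the 422 sites with H3K27ac in both replicates CBR had both subunits at 22.5% (18.8 to 26.7) and delIDR1 at 14.7% (11.6 to 18.4). At the 531 sites of replicate 2 alone CBR had 7.72% (5.74 to 10.3) and delIDR1 16.9% (14.0 to 20.4), and at the 135 of replicate 1 alone 11.9% (7.43 to 18.4) and 15.6% (10.4 to 22.6). CBR was thus highest in the strongest tertile by either Empty library, though its middle and weakest tertiles by replicate 1 hardly differed. The 2 Empty libraries differ in depth, share 422 of these sites and were used in the choice, so they are no separate support. Trends over tertiles were not tested.

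**Figure D2:**
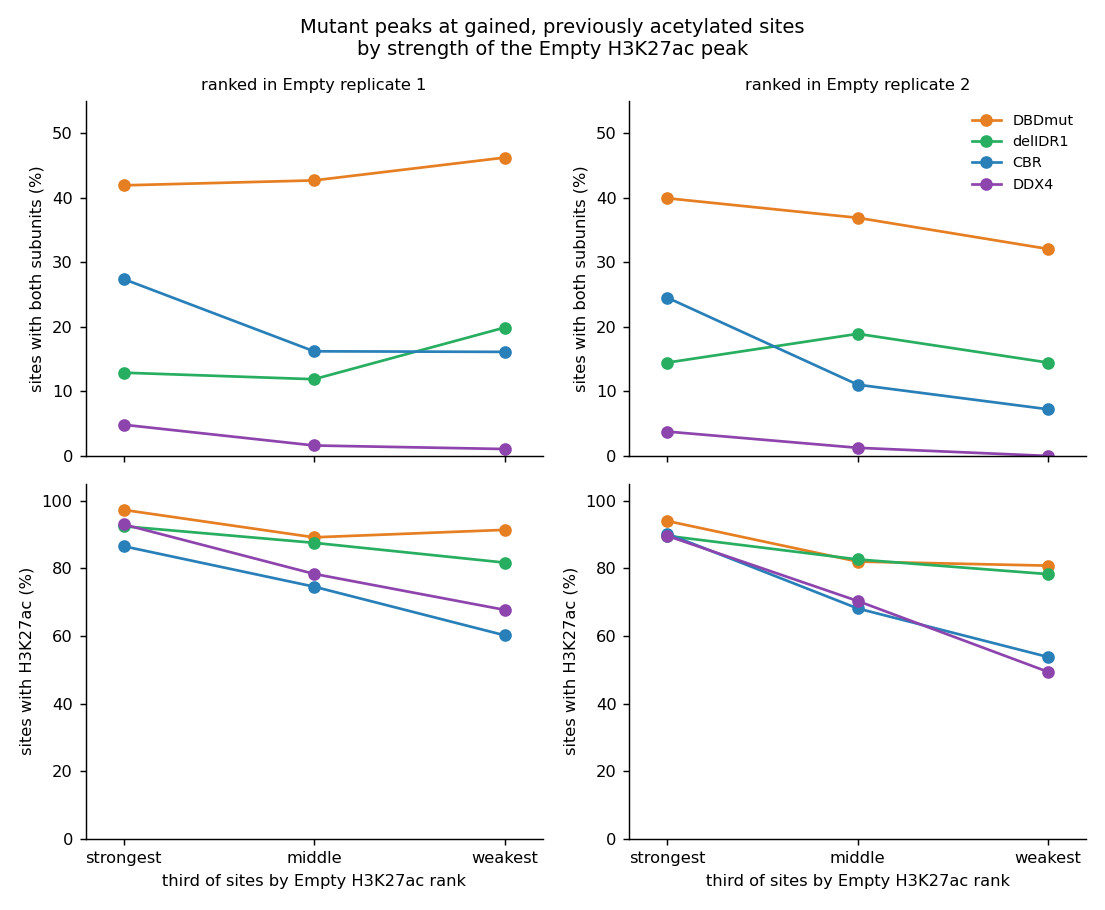
Share of acetylated gained sites (%, vertical axes from 0) with both subunits (upper plots) or H3K27ac (lower plots) in the 4 mutants, by tertile of rank of the Empty H3K27ac peak in replicate 1 (left) or replicate 2 (right); points are shares of single libraries and lines join 1 mutant. The CBR line of both subunits falls from 24.5% to 7.23% on the right, while the delIDR1 line starts and ends at 14.5%.

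Sites differed in how many mutants reached them. At 580 of the 1088 sites (53.3%) no mutant had both subunits, against 32.3% of all BAF sites and 61.7% of the unacetylated gained ones. Both were present in 1 mutant at 326 sites (30.0%), against 20.2% and 26.9%, and in 2 mutants at 127 (11.7%), against 14.2% and 10.2%. They were present in 3 mutants at 49 sites (4.50%), against 12.6% and 1.24%, and in all 4 at 6 (0.551%), against 20.7% and 0.0309%. In each of these 5 shares of both subunits the acetylated sites lay nearer to the unacetylated gained sites than to all BAF sites. DBDmut alone accounted for 236 sites, DBDmut with delIDR1 for 76, CBR alone for 49 and delIDR1 alone for 36. Not a single peak of either subunit was found in any mutant at 257 of the 1088 sites (23.6%), against 15.0% of all BAF sites and 35.0% of the unacetylated gained ones.

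H3K27ac was found at most of these sites in every form of ARID1A, unlike BAF. The sites were chosen to have the mark and lack BAF in Empty cells. A library that resembled Empty would thus show this contrast through the choice alone. The H3K27ac lists were also longer, with 30991 to 90766 peaks, against 5453 to 14849 for SMARCA4 and 9489 to 23364 for SMARCC1. The part of either in the contrast was not tested. WT had an H3K27ac peak at 1036 sites (95.2%, Wilson 95% interval 93.8 to 96.3), against 90.4% of all BAF sites. DBDmut had it at 935 (85.9%, 83.7 to 87.9), against 81.5%, and delIDR1 at 902 (82.9%, 80.6 to 85.0), against 76.6%. CBR had it at 727 (66.8%, 64.0 to 69.6), against 58.9%, and DDX4 at 735 (67.6%, 64.7 to 70.3), against 61.8%. These shares lay close to the background of all BAF sites in each library, so a high share by itself does not set these sites apart.

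The contrast lay with the unacetylated gained sites, above all in CBR and DDX4. There H3K27ac was found at 87.3% of sites in WT, 67.7% in DBDmut and 59.7% in delIDR1, but at 13.1% in CBR and 13.5% in DDX4. The acetylated sites were higher by 7.93 points in WT. The excess was 18.2 points in DBDmut and 23.2 in delIDR1, and it reached 53.7 points in CBR and 54.1 in DDX4. The mean difference was 31.4 ± 21.2 points (SD, n = 5 constructs), higher in 5 of 5. The two-sided exact sign-flip permutation p was 0.0625, or 0.125 after adjustment over 2 tests, which 5 constructs cannot lower. Because the classes were split by the same mark in Empty cells of this line, the split itself favours a positive difference. All constructs also share the lists that define the sites, so the common direction is no independent support. H3K27ac was present in all 5 constructs at 547 acetylated sites (50.3%), against 50.1% of all BAF sites and 5.97% of unacetylated gained ones. It was present in all 7 libraries at 315 (29.0%), against 44.8% of all BAF sites, and in none of the 5 constructs at 23 (2.11%), against 6.36% of all BAF sites and 9.80% of unacetylated ones. The share with the mark in every construct was thus close to that of all BAF sites.

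In each mutant the mark was more frequent where that mutant also had BAF peaks, but it was also common where that mutant had neither subunit. In CBR it was found at 57.7% of the 704 sites with neither subunit, 79.3% of the 232 sites with a single subunit and 90.1% of the 152 with both. The values for DDX4 were 63.6% of 913 sites, 87.3% of 158 and 94.1% of 17. In DBDmut they were 71.1%, 89.4% and 97.1%, and in delIDR1 76.0%, 91.3% and 97.1%. At unacetylated gained sites with neither subunit the mark was at 9.03% in CBR, 12.4% in DDX4, 41.4% in DBDmut and 47.3% in delIDR1. With a single subunit and with both it was at 43.4% and 71.6% in CBR, 76.3% and 92.8% in DBDmut and 82.0% and 94.9% in delIDR1. DDX4 had it at 44 of 88 and 1 of 3 such sites. The rise with BAF peaks was thus not particular to the acetylated sites, and it was not counted over all BAF sites. H3K27ac in all 5 constructs with no BAF peak in any mutant was found at 65 acetylated gained sites (5.97%), against 1.02% of all BAF sites and 13 of the unacetylated gained ones (0.402%).

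The tertiles by Empty H3K27ac rank also ordered the mark in CBR and DDX4. By rank in Empty replicate 2, CBR had H3K27ac at 90.3%, 68.1% and 53.8% of sites from the strongest to the weakest tertile, and DDX4 at 89.6%, 70.3% and 49.4%. delIDR1 spanned a smaller range, with 89.6%, 82.6% and 78.3%, and WT had 96.2%, 93.7% and 95.6%. CBR had the mark at 84.8% (81.1 to 87.9) of the 422 sites marked in both replicates, 59.5% (55.3 to 63.6) of the 531 marked in replicate 2 alone and 39.3% (31.4 to 47.7) of the 135 marked in replicate 1 alone.

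WT cells had wider H3K27ac peaks than Empty cells at these sites. The median width at sites with a peak was 245 bp in Empty replicate 1, 350 bp in Empty replicate 2 and 580 bp in WT. It was 603 bp in DBDmut and 568.5 bp in delIDR1, and 335 bp in CBR and 443 bp in DDX4. Over whole lists the median widths were 215, 279, 317, 381, 393, 255 and 356 bp in the same order, so the lists differ in width by themselves. At constitutive sites the medians were 474 bp and 1049 bp in the Empty replicates and 699.5 bp in WT. The acetylated gained sites thus had narrower peaks than constitutive sites in every library. WT lay above both Empty replicates at these gained sites, while at constitutive sites WT lay between them. Over all BAF sites the medians were 402 bp and 844.5 bp in the Empty replicates and 577 bp in WT. The WT median at the acetylated gained sites was thus close to that of all BAF sites, while both Empty medians were lower. The Empty lists were used in the choice, and its part in these widths was not tested.

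Site by site, the WT peak was wider than the Empty replicate 1 peak at 489 of 542 sites with both (90.2%), against 76.4% of all Empty replicate 1 peaks that met a WT peak, with a median ratio of 2.10. It was wider than the Empty replicate 2 peak at 665 of 907 sites (73.3%), against 30.1% of all Empty replicate 2 peaks, with a median ratio of 1.43. At constitutive sites the WT peak was wider than that of replicate 2 at 16.7%. Replicate 2 is the deeper library and its peaks were mostly the wider ones elsewhere. Empty replicate 2 in turn exceeded replicate 1 at 75.8% of the acetylated gained sites with both, against 86.5% of all replicate 1 peaks.

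The comparison was repeated within classes of Empty peak width, a split added after these values were seen. Against Empty replicate 2, WT was wider at 94.9% of the 277 acetylated gained sites with an Empty peak under 250 bp, and at 73.5% of all such Empty peaks. For Empty peaks of 250 bp to under 500 bp the shares were 80.0% of 335 sites and 37.3% of all peaks, and from 500 bp up they were 45.4% of 295 sites and 13.4%. Against Empty replicate 1 the shares from narrow to wide were 96.0%, 89.9% and 70.9% at these sites and 89.9%, 70.1% and 55.7% over all peaks. The excess was present in all 6 classes, and its size depended on the Empty library used.

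**Figure D3:**
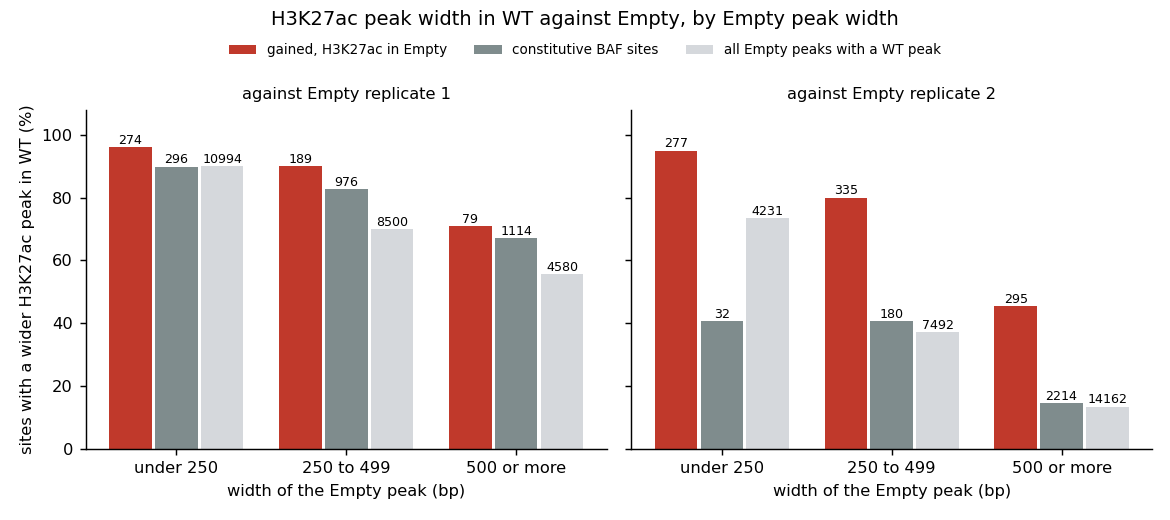
Share of sites (%, vertical axis from 0) whose WT H3K27ac peak is wider than the Empty peak, by width class of the Empty peak (bp, horizontal axes), against Empty replicate 1 (left) and replicate 2 (right); the numbers on the bars are sites or peaks. The bars of acetylated gained sites are the highest in all 6 classes, from 96.0% and 94.9% for the narrowest Empty peaks to 70.9% and 45.4% for the widest.

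DBDmut and delIDR1 resembled WT in this measure and CBR did not. Against Empty replicate 2 the peak was wider at 72.7% of sites in DBDmut (38.6% of all Empty replicate 2 peaks), 70.4% in delIDR1 (37.8%), 53.1% in DDX4 (31.2%) and 34.3% in CBR (15.0%). Against Empty replicate 1 the peak was wider at 490 of 516 sites in DBDmut (82.5% of all Empty replicate 1 peaks), 91.2% in delIDR1 (76.8%), 84.5% in DDX4 (86.2%) and 65.0% in CBR (64.7%). CBR and DDX4 were thus near the background by replicate 1 and above it by replicate 2. The libraries differ in shortest peak length, a stand-in for fragment length, from 98 bp in Empty replicate 1 to 181 bp in delIDR1, and the part of this in the widths was not tested.

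The summit of the H3K27ac peak lay near the WT SMARCA4 summit in every library, at a median distance of 39 bp in Empty replicate 1, 74 bp in Empty replicate 2, 39 bp in WT and 46 to 57 bp in the mutants. Over all BAF sites these medians were 44 bp, 61 bp, 48 bp and 47 to 56 bp. Only H3K27ac peaks that met the site were counted, which favours short distances, and in Empty this overlap is part of the choice. What differed was how much of the site the peaks covered, a measure that moves with peak width and presence. The WT SMARCA4 peak lay wholly inside the H3K27ac peak at 55.1% and 54.2% of sites with a peak in the Empty replicates, against 73.8% and 86.5% over all BAF sites. In WT it did so at 92.5% (86.6% over all BAF sites), in DBDmut at 88.4% (84.3%) and in delIDR1 at 87.0% (81.5%). In CBR this share was 64.0% (74.7%) and in DDX4 71.2% (84.4%). The shares were thus below those of all BAF sites in Empty, CBR and DDX4 and above them in WT, DBDmut and delIDR1.

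Coverage of the WT SMARCA4 summit by an H3K27ac peak was counted over all 1088 sites, with or without a peak. It was 46.2% in Empty replicate 1 and 75.3% in replicate 2, against 53.3% and 59.4% over all BAF sites, and 94.3% in WT, against 88.9%. DBDmut had 84.7% (79.8% over all BAF sites), delIDR1 82.1% (74.6%), CBR 62.6% (57.0%) and DDX4 64.7% (60.6%). At 500 bp from the summit, averaged over both sides, coverage was 5.42% and 12.3% in the Empty replicates, 17.8% in WT and 5.84% in CBR, against 11.6%, 22.9%, 19.9% and 9.26% over all BAF sites. At 1000 bp WT had 6.16% and Empty replicate 2 had 7.12%, against 7.19% and 9.10% over all BAF sites. WT was thus above Empty replicate 2 near the summit and below it at 1000 bp, as it was over all BAF sites. The mean length covered within 1 kb on either side was 212 bp and 450 bp in Empty, against 345 bp and 559 bp over all BAF sites, and 653 bp in WT, against 636 bp. It was 610 bp in DBDmut (608 bp over all BAF sites), 563 bp in delIDR1 (533 bp), 302 bp in CBR (341 bp) and 397 bp in DDX4 (492 bp).

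**Figure D4:**
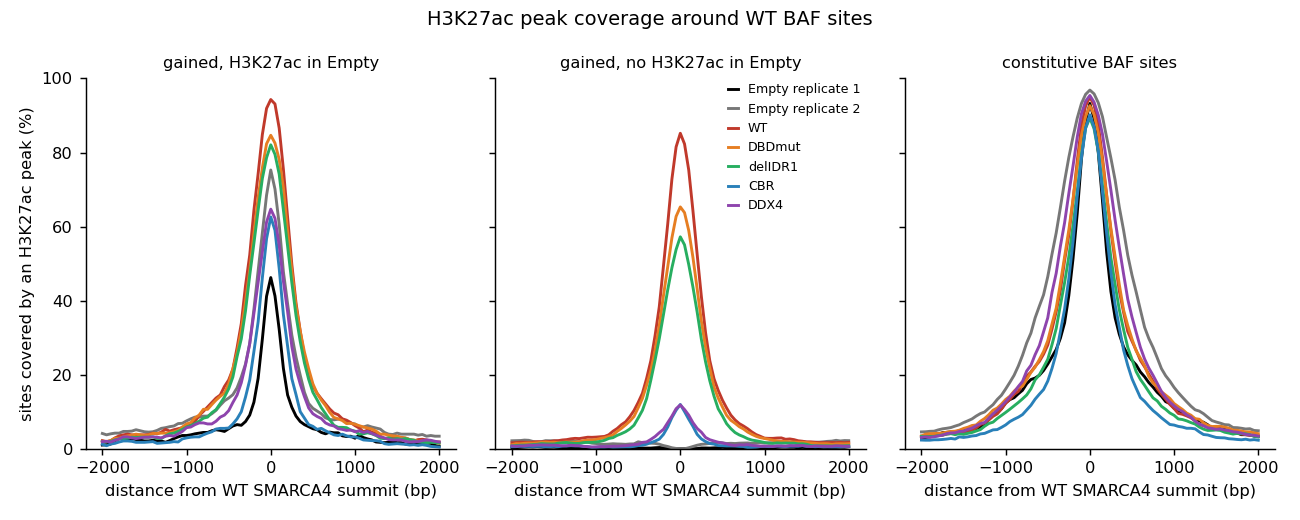
Share of sites covered by an H3K27ac peak (%, vertical axis) by distance from the WT SMARCA4 summit (bp, horizontal axes) in 7 libraries, for acetylated gained (left), unacetylated gained (middle) and constitutive sites (right). At the summit of acetylated gained sites WT is the highest, at 94.3%, while at 1000 bp it lies under Empty replicate 2 (6.16% against 7.12%), and at the summit of constitutive sites Empty replicate 2 is the highest, at 96.9%. Over all BAF sites, which are not drawn, WT likewise lies under Empty replicate 2 at 1000 bp (7.19% against 9.10%).

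Acetylated gained sites lay closer to BAF peaks of Empty cells than unacetylated ones. Both the class and this gap come from Empty lists used in the choice. Empty H3K27ac peaks were common at BAF peaks, at 95.4% and 97.2% of constitutive sites in replicates 1 and 2. The choice itself thus favours sites near BAF peaks of Empty, and its part in the gap was not tested. The median gap to the nearest peak of either subunit in either Empty replicate was 20660.5 bp, against 39311.5 bp. Within 1 kb of such a peak lay 104 of the 1088 sites (9.56%), against 39 of 3234 (1.21%), and within 5 kb lay 18.9% against 8.60%. Beyond 5 kb, CBR had both subunits at 14.7% of 882 acetylated and 2.67% of 2956 unacetylated sites. Within 5 kb it had both at 10.7% of 206 and 3.24% of 278.

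**Figure D5:**
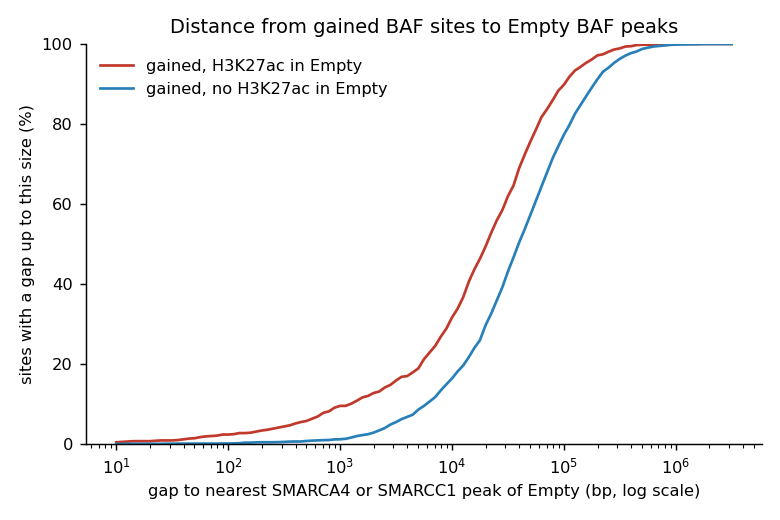
Cumulative share of gained sites (%, vertical axis) by gap to the nearest BAF subunit peak of Empty cells (bp, logarithmic horizontal axis), for acetylated and unacetylated gained sites. The acetylated curve is the higher one over most of the range, with 9.56% against 1.21% within 1 kb and medians of 20660.5 bp and 39311.5 bp.

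The 10 sites of smallest summed rank in the WT SMARCA4 and SMARCC1 lists show these patterns singly. All 10 had both subunits in DBDmut, 9 had them in delIDR1, 6 in CBR and 2 in DDX4. H3K27ac was present at all 10 in WT, DBDmut, delIDR1 and DDX4 and at 9 in CBR, and each Empty replicate had it at 7.

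The strongest, on chromosome 6 from 91078712 to 91079155, ranked 132 in the WT SMARCA4 list and 133 in that of SMARCC1. Its SMARCA4 fold was 18.9 in WT, 14.9 in DBDmut and 14.7 in delIDR1, then 8.86 in CBR and 5.76 in DDX4. Its H3K27ac peak was 295 bp and 420 bp wide in the Empty replicates, 914 bp in WT, 792 bp in DBDmut and 802 bp in delIDR1, against 420 bp with CBR and 803 bp with DDX4. BAF was called in all 4 mutants there, and only CBR had no wider an acetylated stretch than Empty replicate 2.

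At the next site, on chromosome 7 from 43687487 to 43688109, Empty H3K27ac was called in replicate 2 alone, 213 bp wide at rank 22436. In WT the peak was 1235 bp wide at rank 154, and it was 1183 bp wide in DBDmut and 740 bp in delIDR1. CBR had no peak of any of the 3 antibodies there, and DDX4 had only H3K27ac, 477 bp wide. The SMARCA4 fold was 13.7 in WT, 12.0 in DBDmut and 11.7 in delIDR1.

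Other strong sites had BAF in CBR. On chromosome 6 from 151203379 to 151203592, CBR had a SMARCA4 fold of 8.58 and a SMARCC1 fold of 12.9, against 17.6 and 18.2 in WT, and H3K27ac was 256 bp and 156 bp wide in Empty, 593 bp in WT and 1078 bp in delIDR1. On chromosome 4 from 84178037 to 84178327, where only Empty replicate 1 was acetylated, DBDmut had a SMARCA4 fold of 23.8, WT 19.9, delIDR1 13.3 and CBR 8.69. On chromosome 5 from 98355798 to 98356208 both subunits were found in all 4 mutants, with SMARCA4 folds of 15.4 in WT and 5.59 in DDX4. Folds belong to separate lists, so these values are given side by side and make no comparison of amounts.

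On chromosome 1 from 90372182 to 90372480 CBR and DDX4 had H3K27ac but no BAF peak. SMARCA4 had a fold of 19.5 in WT, 14.4 in DBDmut and 8.37 in delIDR1, and neither subunit had a peak in CBR or DDX4. H3K27ac was called in all 7 libraries there, 173 bp and 456 bp wide in Empty, 586 bp in WT, 272 bp in CBR and 622 bp in DDX4.

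A site on chromosome 9 from 115629122 to 115629794, among the 6 with both subunits in all 4 mutants, had its best ranks in the truncations. Its SMARCA4 peak ranked 3126 in WT and 5765 in DBDmut but 219 in delIDR1 and 75 in CBR, and its SMARCC1 peak ranked 2914, 8160, 444 and 210. The lists differ in length, so the ranks show a place within each list only. H3K27ac was called in all 7 libraries, 525 bp and 437 bp wide in Empty and 1350 bp in CBR.

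Sites with no BAF peak in any mutant began further down the WT lists. The first, on chromosome 17 from 43170330 to 43170494, had a SMARCA4 rank of 1182 and a fold of 11.9. H3K27ac was called there in Empty replicate 2 (182 bp) and in all 5 constructs, 512 bp wide in WT and 217 bp in CBR. On chromosome 2 from 96100394 to 96100519 the mark was called in Empty replicate 2 and WT alone. The Empty peaks of these sites were weak, at ranks 72020 and 57950 of 90766. Both sites left the class with a −log10 q of at least 5 and with lists of equal length. Of the 5 strongest such sites, 4 had H3K27ac in DBDmut and 3 each in delIDR1, CBR and DDX4.

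Of the 5 sites with the smallest summed rank in the Empty H3K27ac lists, 4 lay 4 to 209 bp from a BAF peak of Empty. Ranks and gaps here both come from lists used in the choice. The WT SMARCA4 ranks of these 4 were 5019 to 12528 and the WT SMARCC1 ranks 617 to 8799, and by summed rank they stood at places 290, 399, 639 and 805 of the 1088 sites. On chromosome 17 from 16189832 to 16189966 the gap was 9 bp, no mutant had either subunit at the site, and H3K27ac was 905 bp and 1390 bp wide in Empty and 1516 bp in WT. The exception, on chromosome 10 from 95218611 to 95218921, lay 20715 bp from such a peak and had both subunits in DBDmut, delIDR1 and CBR. Its H3K27ac peak ranked 923 and 2405 in Empty, 31 in WT and 44 in CBR.

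WT cells had no H3K27ac peak at 52 of the 1088 sites. Empty replicate 2 had the mark at 46 of these and replicate 1 at 15, DBDmut at 17, CBR at 14, delIDR1 at 8 and DDX4 at 5. A WT H3K27ac peak lay within 1 kb of 10 of the 52, and their median WT SMARCA4 rank was 8679.5. The strongest, on chromosome 5 from 80802885 to 80803027, had H3K27ac in Empty replicate 1 (268 bp) and DBDmut (183 bp) only, while CBR had both subunits there.

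The HA tag was mapped in DDX4 cells, as a readout of the hybrid protein itself. An HA peak met 58 of the 1088 sites (5.33%, Wilson 95% interval 4.15 to 6.83), against 26.5% of all BAF sites, 2.54% of unacetylated gained and 67.9% of constitutive sites. Of the 58, 49 had H3K27ac in DDX4 cells, 22 had at least 1 of the subunits there and 6 had both. The HA list held 5268 peaks from the shallowest library, at 0.463 fragments per kb, so a missing HA peak may reflect depth, which was not tested.

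The border of the class was narrow in base pairs. The member with the least overlap, on chromosome 1 from 21965450 to 21965544, shared 1 bp with an Empty H3K27ac peak, and the nearest site outside, on chromosome 1 from 43938228 to 43938352, missed one by 1 bp. At the 79 members with at most 50 bp of overlap, CBR had H3K27ac at 38.0% and both subunits at 2.53%. At the 28 sites outside within 50 bp of an Empty H3K27ac peak the values were 35.7% and 3.57%. In delIDR1 both subunits were at 6.33% inside and 21.4% outside, and H3K27ac was at 70.9% and 71.4%. DDX4 had H3K27ac at 32.9% inside and 42.9% outside and both subunits at none, and DBDmut had H3K27ac at 73.4% and 78.6% and both subunits at 20.3% and 21.4%. These few sites are described without a test, and 346 of the unacetylated gained sites (10.7%) had an Empty H3K27ac peak within 1 kb.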

How the data were processed

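CUT&Tag libraries for SMARCA4, SMARCC1 and H3K27ac in 7 backgrounds and for HA in DDX4 were grouped by their titles. Each library had 1 deposited narrowPeak list, so peaks were called per library. The authors deposited per peak a fold (a ratio of summit pileup to local background), a −log10 p-value, a −log10 q-value and a score, and ranks here follow the −log10 q. The lowest deposited −log10 q was 2.0 to 2.03. Per the submitters' processing notes the build was hg19 and bcl2fastq was used. For the aligner, the peak caller, duplicates and any control, the sources used here give nothing.

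Overlaps used half-open intervals on chromosomes 1 to 22 with at least 1 bp shared, and at each site the overlapping peak of highest −log10 q gave width, rank and fold. Relative depth came from pileups solved from fold and p-value, as the lowest background divided by the shortest peak length. Shares have Wilson 95% intervals, and differences between site classes were tested by exact sign flips over constructs. Nothing says that the libraries were from separate cultures. The sign flips ran over different forms of ARID1A with 1 library each, so the p-values measure no spread between libraries of a form. Each p-value was the smallest possible, so it states only that all differences had the same direction. A count of 0 is given with the share that 3 counts would make. Overlap, gap and pileup code was tested on simulated data.

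The members and lists were chosen with earlier results of these data known. Sites named are the 10 of smallest summed WT rank, the first 5 in that order with each of 4 patterns (H3K27ac in both Empty replicates, both subunits in all 4 mutants, neither in any, no H3K27ac in WT), the 5 strongest by Empty H3K27ac, and the pair at the class border. Of these, those that show a pattern best were chosen for description after their values were seen. Alternatives were lists of equal length, peaks with a −log10 q of 5 or more only, 50% overlap of the shorter peak, H3K27ac in both Empty replicates, and leaving out either Empty replicate. Genes, motifs and sequences were not used here, since the reference tables were of another build. Computations used Python 3.11.15, numpy 2.4.6, scipy 1.17.1, pandas 2.3.3 and matplotlib 3.10.9.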

Additional observations from a re-analysis of the deposited data

How the results depend on the processing

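Of 82 values under other settings, 43 stayed within the interval or threshold of the first value and 39 moved. The 43 include every mean difference between classes, judged by the side of 0.05 on which its sign-flip p lay. With 4 or 5 constructs that p cannot pass 0.05, so these differences could not count as moved, and their labels show no stability. The mean difference for both subunits counted as unmoved although it went from 4.48 to 10.3 points without Empty replicate 2. No mean difference between classes changed its direction. With a −log10 q of at least 5, H3K27ac was at 88.7% of the DBDmut, 85.2% of the delIDR1, 70.2% of the CBR and 73.1% of the DDX4 sites, and the WT peak exceeded that of Empty replicate 2 at 69.2%. With lists of equal length 327 sites were left, delIDR1 had both subunits at 32.1% and CBR at 16.2%, and H3K27ac was at 96.6% in WT, 93.6% in DBDmut and 92.7% in delIDR1, 78.9% with CBR and 86.2% with DDX4, with WT peaks wider than in Empty at 93.0% and 66.4%. An overlap of 50% gave 69.6% for the width against replicate 2. H3K27ac in both Empty replicates left 422 sites, with both subunits at 42.7% in DBDmut, 22.5% in CBR and 3.08% in DDX4, H3K27ac at 97.9%, 94.1%, 90.0%, 84.8% and 88.6% in WT, DBDmut, delIDR1, CBR and DDX4, and the width value at 63.0%.

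Leaving out either Empty replicate gave 914 to 1167 sites. Both subunits were then at 17.1% to 18.1% in delIDR1, 40.0% to 46.4% in DBDmut, 19.1% to 23.4% in CBR and 3.34% to 7.33% in DDX4. H3K27ac was at 93.9% to 95.4% in WT, 82.8% to 86.7% in delIDR1, 85.8% to 91.9% in DBDmut, 72.1% to 78.8% in CBR and 72.1% to 84.0% in DDX4. The mean differences were 6.84 to 10.3 points for both subunits and 33.0 to 35.7 points for H3K27ac, and WT peaks were wider at 85.4% against replicate 1 and 68.0% against replicate 2. The cause of these shifts was not tested, beyond the fewer sites or peaks that each setting leaves. Of the 28 named sites, 17 to 26 stayed in the class under all settings but H3K27ac in both replicates, which kept 11.

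Libraries of different backgrounds could not be paired, because only Empty carries replicate numbers. Site classes were compared within each library, and peak widths site by site. Lists differ in depth, whose part in missing peaks was not tested, and each form of ARID1A is 1 library.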

Other observations

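The acetylated gained sites were spread over all 22 chromosomes tested, from 11 sites on chromosome 21 to 124 on chromosome 1. They made up 18.6% of the gained sites on chromosome 9 and 42.3% of those on chromosome 22, where there were 30 among 71. Joining sites less than 12.5 kb apart gave 41 runs of at least 2 sites, which held 83 sites (7.63%). Runs were not counted for other classes of sites, so it is not known whether this share is low or high. A single run had 3 sites, picked here with its values known, on chromosome 6 from 144587336 to 144608522. All 3 had H3K27ac in WT, DBDmut and Empty replicate 2, and 2 had it in Empty replicate 1, delIDR1, CBR and DDX4. Both subunits were present at 1 of the 3 in DBDmut, at 1 in CBR and at none in delIDR1 or DDX4.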
